A study of Mus musculus with 11 samples.

Results

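Small nucleolar RNA (snoRNA) genes were examined in mouse stomach after tamoxifen, rapamycin or both. Members were genes whose single symbol in the platform's probe table began with Snord or Snora followed by a digit, each represented by 1 probe set, the brightest on average in whole stomach. They numbered 73 of the 22180 genes measured, with 47 box C/D genes (Snord) and 26 H/ACA genes (Snora). The table also held 43 probe sets that named a snoRNA together with other genes, and these were not used.

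Adult C57Bl/6 mice received daily intraperitoneal injections, and total RNA of the whole stomach was hybridised to Affymetrix arrays. The vehicle group was given sunflower oil (n = 2), the tamoxifen group 5 mg per 20 g mouse for 3 days (n = 2), the rapamycin group 0.6 mg per 20 g mouse for 10 days (n = 3), and the combined group both drugs (n = 2). Tamoxifen binds oestrogen receptors and at high dose injures the acid-secreting parietal cells of the stomach, and rapamycin inhibits the growth kinase complex mTORC1. A further array each held parietal cells isolated from the stomach of C57Bl/6 adults and the stomach cells left after that isolation. The labels name the whole-stomach arrays biological replicates and do not say whether each is 1 mouse, so the p-values measure the spread between these samples.

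Box C/D snoRNAs are short nuclear RNAs that pair with pre-ribosomal RNA and guide fibrillarin, with Nop56, Nop58 and Snu13, to methylate the ribose of a chosen nucleotide. H/ACA snoRNAs are usually longer and guide dyskerin (Dkc1), with Gar1, Nhp2 and Nop10, to turn a chosen uridine into pseudouridine. A few members of each class are needed for cleavage of the ribosomal precursor instead of its modification. Most mammalian snoRNAs lie in introns of host genes, many of which encode ribosomal or nucleolar proteins, and are trimmed out of the spliced intron. In RefSeq (GRCm38.p6) the members were 48 to 221 nt long, with a median of 68 nt for box C/D and 118.5 nt for H/ACA genes. The RNA was purified on RNeasy columns, which retain very short RNA poorly, so the array signal of a member may include host-gene precursor, and the share of it was not tested.

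Arrays stood apart in ways the labels do not name, so most treatment comparisons of the members are given with and without that division. Results for hosts, gene lists and other small RNA genes come from the fit without it. Vehicle 2 and tamoxifen 2 held exactly equal values at 7093 of 41345 probe sets, whereas any pair among the other 7 whole-stomach arrays shared 12 to 58 and pairs across the division shared 0 or 1. The fraction arrays shared 1918 with each other. The comparison of combined treatment with rapamycin lay wholly within the set of 7, whereas tamoxifen against vehicle had 1 array of each group in each set. The mean log2 level of 14 measured squamous forestomach markers of 15 listed was 5.20 on vehicle 1 and 4.85 on vehicle 2. It was 9.83 and 5.00 on tamoxifen 1 and tamoxifen 2, and 9.79, 8.58 and 5.53 on rapamycin 1 to rapamycin 3. Both combined arrays were high, at 9.06 and 9.41. Parietal markers, 13 of 13 measured, averaged 9.99 to 10.39 without tamoxifen and 8.70 to 9.16 with it, and 11 of 12 listed proliferation genes averaged 6.97 to 7.34 without and 8.002 to 8.54 with it. Chief cell markers, 6 of 6 measured, averaged 9.84 to 10.16 without tamoxifen and 8.56 to 9.13 with it, and mast cell markers, 8 of 8 measured, 7.20 and 7.68 with vehicle and 5.63 to 6.45 in the other groups. The part of these shifts in the snoRNA values was not tested beyond the covariate fit given below. In whole tissue, fewer cells of a type and less RNA per cell cannot be told apart.

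Adding tamoxifen to rapamycin gave higher snoRNA signal, more so for the H/ACA genes. Of the 26 H/ACA genes 24 were higher in the combined arrays than in the rapamycin arrays, with a median log2 difference of 0.78 (1.72-fold), and of the 47 box C/D genes 40 were higher, with a median of 0.30 (1.23-fold). The median over all genes was -0.01. Both combined arrays lay above all 3 rapamycin arrays in 23 H/ACA genes and 25 box C/D genes, against 18.7% of all genes. The lowest and highest log2 differences were -0.13 and 1.46 for H/ACA genes and -0.46 and 1.18 for box C/D genes. The difference between the classes was not given a test, because the members were chosen with results of these arrays known. It was present among dim and bright members alike: below the members' median level the medians were 0.78 (18 H/ACA genes) and 0.44 (18 box C/D genes), and at or above it they were 0.77 (8) and 0.26 (29). With the squamous marker mean as a covariate the class medians were 0.80 and 0.34. The classes also differed between arrays of the same group. For vehicle 2 minus vehicle 1 the H/ACA and box C/D medians were 0.62 and 0.27. For rapamycin 3 minus the mean of rapamycin 1 and rapamycin 2 they were 0.46 and 0.35. For tamoxifen 2 minus tamoxifen 1 they were -0.26 and -0.04. The part of such spread in the class difference was not tested.

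**Figure D1:**
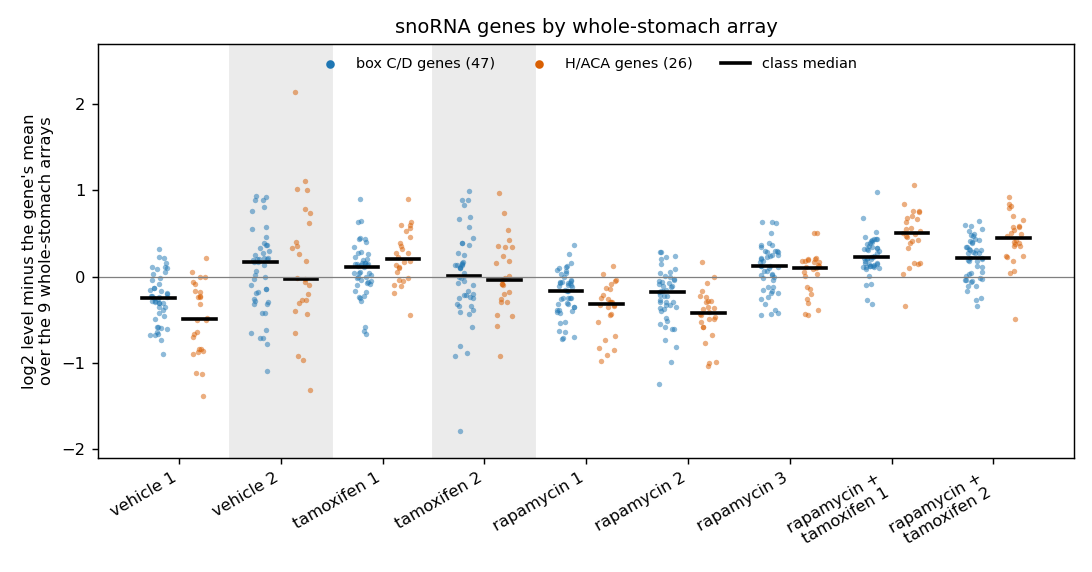
Each point is a snoRNA gene's log2 level on 1 whole-stomach array minus its mean over the 9 arrays, for 47 box C/D and 26 H/ACA genes, with black bars at the class medians; shading marks vehicle 2 and tamoxifen 2, which share equal values. The H/ACA medians were 0.50 and 0.45 on the combined arrays, -0.32, -0.43 and 0.11 on the rapamycin arrays, and -0.49 on vehicle 1.

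Snora78 and Snora61 passed the test for combined treatment against rapamycin. Snora78, which lies within the spans of both Rps2 and Snhg9, had log2 levels of 6.35, 6.42 and 6.40 with rapamycin and 7.20 and 7.17 with both drugs. The groups did not overlap, and the log2 difference was 0.79 ± 0.12 (limma standard error, adjusted p = 0.012, Benjamini-Hochberg over all genes). Snhg9 had 6.71, 6.84 and 6.78 with rapamycin and 6.86 and 6.72 with both drugs, and Rps2 is not given here. The share of either gene in the Snora78 signal was not tested. Snora61, an intronic RNA of Snhg12, had 7.77, 7.63 and 7.95 with rapamycin and 8.77 and 8.76 with both drugs. Its groups did not overlap either, and the difference was 0.98 ± 0.18 (limma adjusted p = 0.0279). These were 2 of 73 members, and 0 members were called lower, where 2.45% of all genes were called in either direction and 1.13% were called higher. With the set of arrays as a block 8 members were called (Snora19, Snora23, Snora61, Snora69, Snora78, Snord19, Snord72 and Snord73a) against 6.67% of all genes, and on the 7 arrays of the larger set alone 12 were called against 4.97%. In that fit vehicle and tamoxifen have 1 array each, and its spread comes from the other groups. Leaving out rapamycin 1, rapamycin 2 or either combined array left 0 members called, leaving out rapamycin 3 left 1, leaving out either tamoxifen array gave 5, and leaving out either vehicle array gave 8.

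Members next in order of p did not pass the test. Snord19, within Gnl3, had 4.68, 4.67 and 4.90 with rapamycin and 5.76 and 5.27 with both drugs, a difference of 0.77 ± 0.17 (limma adjusted p = 0.0504). Snora19, within the translation factor gene Eif3a, had 3.56, 3.57 and 3.42 against 4.70 and 4.04, a difference of 0.85 ± 0.19 (limma adjusted p = 0.0632), and of 0.52 without combined array 1. Snora69, within Rpl39, had 5.34, 5.34 and 5.51 against 6.30 and 6.29, a difference of 0.90 ± 0.22 (limma adjusted p = 0.0852). In each of the 3 genes both combined arrays lay above every rapamycin array. Over the whole-stomach arrays Snord19, Snora19 and Snora69 averaged 4.78, 3.86 and 5.63, where the all-gene medians were 5.63 to 5.75.

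None of 4 members picked out as known for cleavage of the ribosomal precursor passed the test in this comparison. Snora73a and Snora73b, copies of U17 within Snhg3 that act in 18S maturation, differed by 1.44 ± 0.43 and 1.46 ± 0.45 (limma adjusted p = 0.148 and 0.168). Snora73a had 7.76, 7.63 and 8.35 with rapamycin and 9.22 and 9.48 with both drugs. Snord118, the U8 RNA needed for maturation of the large ribosomal subunit, had 5.44, 4.91 and 5.77 against 6.53 and 6.56, a difference of 1.18 ± 0.32 (limma adjusted p = 0.12). Snord22, the U22 RNA that acts in 18S maturation, had a difference of 0.46 ± 0.30 (limma adjusted p = 0.59). The Rnu3a gene for U3, a box C/D RNA that the symbol rule does not take in, rose by 1.72 ± 0.32 (limma adjusted p = 0.0284), from 4.64, 4.99 and 5.13 to 6.47 and 6.80. The near-identical Snora73 copies may share signal on the array and are not independent. These genes were named after their values were seen.

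Tamoxifen against vehicle gave a smaller median shift that differed between the sets of arrays. The fitted medians were 0.25 for H/ACA genes (22 of 26 higher) and 0.18 for box C/D genes (33 of 47 higher), against -0.02 over all genes. Between tamoxifen 1 and vehicle 1 the H/ACA median was 0.68 and the box C/D median 0.35, whereas between tamoxifen 2 and vehicle 2 they were -0.11 and 0.00. Tamoxifen 2 and vehicle 2 held exactly equal values at 7 snoRNA probe sets. Over all genes the median size of the difference was 0.12 in that pair and 0.21 between tamoxifen 1 and vehicle 1. Of the 73 members 29 were higher in both pairs, 9 were lower in both and 35 moved in opposite directions or had a difference of 0 in 1 pair. The vehicle arrays themselves differed by more than 1 log2 unit in 16 members (21.9%), against 2.34% of all genes. Snora16a was the widest, at 8.63 in vehicle 1 and 11.89 in vehicle 2. Both tamoxifen arrays lay above both vehicle arrays in 12 box C/D and 6 H/ACA genes, where 13.4% of all genes did so.

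**Figure D2:**
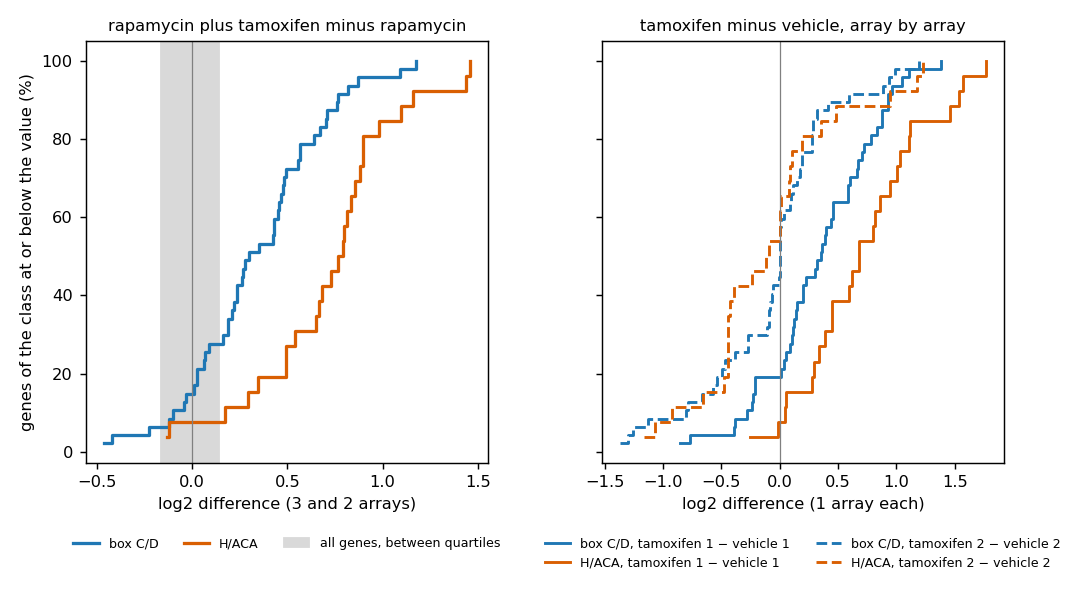
Cumulative share of box C/D and H/ACA genes (%) by log2 difference: left, combined treatment minus rapamycin, with the range between the quartiles of all genes in grey; right, tamoxifen minus vehicle for tamoxifen 1 and vehicle 1 (solid) and tamoxifen 2 and vehicle 2 (dashed). The H/ACA median was 0.78 at left, and 0.68 and -0.11 in the array pairs at right.

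Snora78, Snord19 and Snord42b rose with tamoxifen alone. Snora78 had 6.30 and 6.34 with vehicle and 7.31 and 7.52 with tamoxifen, a difference of 1.09 ± 0.13 (limma adjusted p = 0.00914). Snord19 had 3.88 and 3.999 with vehicle and 4.93 and 4.93 with tamoxifen, a difference of 0.99 ± 0.18 (limma adjusted p = 0.0337). These levels are dim, below the all-gene medians of 5.63 to 5.73 on the same arrays. Snord42b, within the ribosomal protein gene Rpl23a, had 7.40 and 7.66 against 8.33 and 8.65, a difference of 0.96 ± 0.19 (limma adjusted p = 0.0496). No group overlapped in these 3 genes, and the difference had the same sign in both array pairs. They were 3 of 73 members, where 1.72% of all genes were called and 0.933% were called higher. With the set of arrays as a block 6 members rose (Snora61, Snora75, Snora78, Snord19, Snord42b and Snord52) and Snord61 and Snord123 fell, against 4.69% of all genes called. Leaving out either tamoxifen array, rapamycin 1 or rapamycin 2 left 1 member called, and a fit of the vehicle and tamoxifen arrays alone called 0.

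Snord61 and Snord123 were the members of smallest p that were lower. Snord61, within Rbmx, had 10.49 and 10.47 with vehicle and 9.64 and 9.69 with tamoxifen, a difference of -0.82 ± 0.18 (limma adjusted p = 0.0616). Snord123, within Snhg18, had 8.24 and 9.03 against 7.47 and 7.73, a difference of -1.03 ± 0.23 (limma adjusted p = 0.0747), and of -0.64 without vehicle 2. Neither gene's groups overlapped. Both tamoxifen arrays lay below both vehicle arrays in 5 of 73 members and 3086 of 22180 genes.

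Averaged over rapamycin, tamoxifen changed 9 members, and the H/ACA genes had the larger median. This comparison averages tamoxifen against vehicle and combined treatment against rapamycin, so it is no separate occurrence of the class difference. The medians were 0.52 for H/ACA genes (23 of 26 higher) and 0.22 for box C/D genes (35 of 47 higher). Snora61, Snora69, Snora75, Snora78, Snord19, Snord42b and Snord43 rose, and Snord61 and Snord123 fell. Over all genes 5.85% were called, with 3.24% higher and 2.61% lower. The rises were largest for Snora75, within the nucleolin gene Ncl, at 1.26 ± 0.23 (limma adjusted p = 0.0137). It had 5.19 and 5.09 with vehicle, 6.96 and 6.04 with tamoxifen, 5.72, 5.38 and 6.27 with rapamycin, and 7.13 and 6.77 with both. The arrays with tamoxifen overlapped those without it in Snora75, through tamoxifen 2 and rapamycin 3.

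The other called members had narrower spreads. Snora78 differed by 0.94 ± 0.09 (limma adjusted p = 0.000729) and kept its call when any 1 array was left out. Snora61 at 0.89 ± 0.13 (limma adjusted p = 0.00547) and Snord19 at 0.88 ± 0.12 (limma adjusted p = 0.00373) did so too. Snord42b differed by 0.76 ± 0.13 (limma adjusted p = 0.0103), and Snora69 by 0.73 ± 0.16 (limma adjusted p = 0.0352). Snora69 is among the probe sets with exactly equal values on vehicle 2 and tamoxifen 2, at 5.61, and Snord37 held that same value on both arrays. Snora69 had 4.79 on vehicle 1 and 5.90 on tamoxifen 1, so its arrays with and without tamoxifen met at that equal value. Snord43, within Rpl3, had 5.94 and 5.73 with vehicle, 6.55 and 6.62 with tamoxifen, 5.67, 4.93 and 5.60 with rapamycin, and 6.26 and 5.96 with both, a difference of 0.73 ± 0.17 (limma adjusted p = 0.0365). Snord61 fell by 0.62 ± 0.12 (limma adjusted p = 0.0174), with 10.38, 10.51 and 10.90 with rapamycin and 10.19 and 10.16 with both drugs. Snord123 fell by 0.75 ± 0.16 (limma adjusted p = 0.0273), with 8.30, 8.29 and 8.44 against 7.88 and 7.89. With the set of arrays as a block 20 members rose and 2 fell, against 12.5% of all genes called. On the 7 arrays alone 22 rose and 1 fell, against 7.2%, with medians of 0.67 for H/ACA and 0.30 for box C/D genes. Leaving out 1 array gave 3 to 19 calls, the fewest without combined array 1 and the most without vehicle 2, and 13 without tamoxifen 2.

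**Figure D3:**
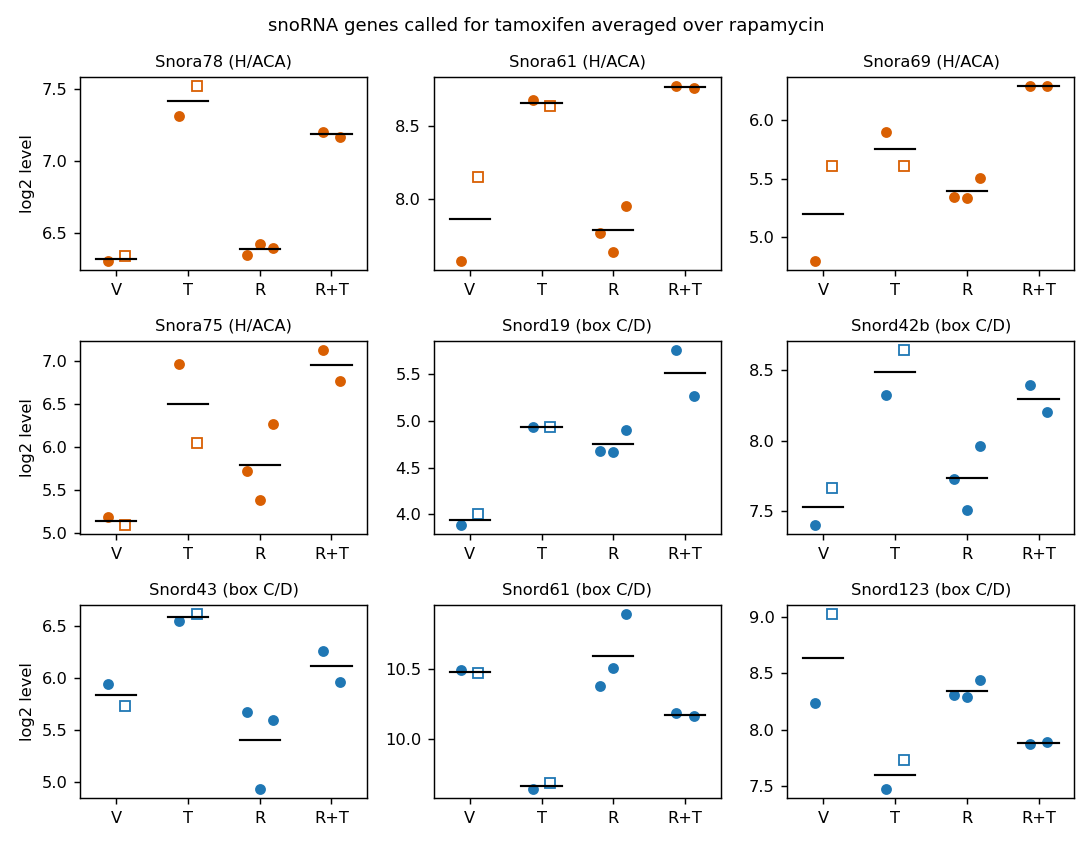
Log2 level (y axis, scaled per gene) of the 9 snoRNA genes called for tamoxifen averaged over rapamycin, in vehicle (V), tamoxifen (T), rapamycin (R) and combined (R+T) arrays, with black bars at group means; open squares mark vehicle 2 and tamoxifen 2. Snora78 lay between 6.30 and 6.42 in all arrays without tamoxifen and between 7.17 and 7.52 in all arrays with it.

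Combined treatment against vehicle gave medians of 0.73 for H/ACA genes (24 of 26 higher) and 0.35 for box C/D genes (34 of 47 higher). Snord19 rose by 1.58 ± 0.18 (limma adjusted p = 0.00829), Snora75 by 1.81 ± 0.34 (limma adjusted p = 0.0474) and Snora78 by 0.86 ± 0.13 (limma adjusted p = 0.022). In all 3 genes both combined arrays lay above both vehicle arrays, as they did in 41 of 73 members and 4282 of 22180 genes. Over all genes 1.15% were called and 0.41% were called higher. With the set of arrays as a block Snora61, Snora78 and Snord19 were called, against 1.7% of all genes, the medians were 0.85 and 0.43, and Snora75 had an adjusted p of 0.0715 (limma). The vehicle arrays lie in different sets and both combined arrays in 1, so treatment and set are partly mixed here. Leaving out combined array 1 gave 0 calls, leaving out any 1 of combined array 2, vehicle 1 or the rapamycin arrays gave 1, and leaving out either tamoxifen array gave 6. With the squamous marker mean as a covariate 0 members were called. Snora61 at 0.91 ± 0.20 and Snora69 at 1.10 ± 0.24 came next in order of p (limma adjusted p = 0.082 and 0.0858).

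Rapamycin on its own changed no member in the test. Against vehicle the medians were 0.03 for H/ACA and -0.01 for box C/D genes, with 36 of 73 members higher. With the set of arrays as a block they were 0.04 and 0.07, with 43 members higher, and on the 7 arrays, with vehicle 1 as the only vehicle array, 0.16 and 0.12, with 59 higher. The limma count was 0 members called in both the shared-spread and the set-block fit, and 0.0496% of all genes in the former. In that shared-spread fit 7 of 73 members and 1977 of 22180 genes had an unadjusted limma p under 0.05. Snord19 had the smallest p, with 4.68, 4.67 and 4.90 in the rapamycin arrays against 3.88 and 3.999, a difference of 0.81 ± 0.17 (limma adjusted p = 0.253). Snora41, within the elongation factor gene Eef1b2, had 5.46, 5.38 and 5.65 against 6.02 and 6.81, a difference of -0.91 ± 0.25 (limma adjusted p = 0.401). The groups did not overlap in either gene. All rapamycin arrays lay above both vehicle arrays in 12 members and below them in 4. Of all 22180 genes, 2821 lay above and 3170 below. Snord83b at 0.58, Snord37 at -0.47 and Snord118 at -0.82 followed, with limma adjusted p between 0.484 and 0.527.

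The rapamycin arrays differed from each other across the class. Rapamycin 3 lay above the mean of rapamycin 1 and rapamycin 2 in 68 of 73 members, with a median log2 difference of 0.36, against -0.01 over all genes. It also had the lowest squamous marker mean of the 3.

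The effect of rapamycin in the presence of tamoxifen had medians of 0.36 for H/ACA and 0.22 for box C/D genes, 0.44 and 0.28 with the set as a block, and 0.27 and 0.15 on the 7 arrays. None of the 73 members was called (limma), and 0% of all genes were. An unadjusted limma p under 0.05 was found in 13 members and 1257 of 22180 genes. Snord71 had 8.88 and 8.25 with tamoxifen and 9.27 and 9.62 with both drugs, a difference of 0.88 ± 0.26 (limma adjusted p = 0.814). Snord8, Snord19, Snord61 and Snord111 followed with differences of 0.90, 0.58, 0.51 and 0.70. Rapamycin averaged over tamoxifen had medians of 0.20 for H/ACA and 0.05 for box C/D genes, with 30 of the 47 box C/D genes higher. With the set as a block, and on the 7 arrays, the medians were 0.20 and 0.13, with 39 of 47 higher. The box C/D median was -0.03 without vehicle 1, -0.01 without rapamycin 3 and 0.19 without vehicle 2, and the H/ACA median was 0.04 without vehicle 1, 0.11 without either tamoxifen 2 or rapamycin 3 and 0.28 without tamoxifen 1. Limma called 0 members and 0.0496% of all genes. Its unadjusted p was under 0.05 in 18 of 73 members and 2898 of 22180 genes. Snord19 again had the smallest p, with 0.70 ± 0.12 (limma adjusted p = 0.114), followed by Snora41, Snord37, Snord8 and Snord83b at -0.79, -0.46, 0.65 and 0.50.

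Whether tamoxifen acted differently with and without rapamycin was asked with the interaction term. Its medians were 0.45 for H/ACA and 0.14 for box C/D genes on all 9 arrays, but -0.02 and -0.03 on the 7 arrays of the larger set. Limma called 0 members and 0% of all genes, with 1 member and 627 of 22180 genes at an unadjusted p under 0.05. The smallest p was that of Snord71, at 0.99 ± 0.35 (limma adjusted p = 1), ahead of Snord111, Snora30, Snora19 and Snora68 at 0.75, 0.86, 0.57 and 0.57. These comparisons share control arrays and are not independent of each other.

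The host genes were compared with the snoRNAs they hold, since the array signal may mix them. Of the 73 members 64 lay within the span of 1 RefSeq gene, 6 within several and 3 (Snord13, Snord89 and Snord118) within none. Strand was not given in the gene table, so hosts are by position only. The single hosts were protein coding for 49 members, including ribosomal protein genes for 18, and long non-coding for 15. For 55 members the host was measured as well, which gave 41 host genes. Ncl holds 1 member of each class, Snhg12 holds 4, 2410006H16Rik holds 3, and Snhg3 and Gnl3 hold 2 each.

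The starts of 6 of these hosts are shown because the results below turn on them, with Snhg18 as the host that fell. Each sequence is the last 100 bases of RefSeq's promoter window (GRCm38.p6), 5′ to 3′, from 50 bases before to 50 after the annotated start. Capitals mark a run of at least 6 C or T bases with a base within 5 bases of the start, the feature by which many ribosomal protein and snoRNA host messages are known.
Snhg12, chr4:132308628-132308727, plus strand: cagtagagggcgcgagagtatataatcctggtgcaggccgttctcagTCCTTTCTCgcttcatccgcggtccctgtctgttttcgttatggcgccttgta
2410006H16Rik, chr11:62602827-62602926, plus strand: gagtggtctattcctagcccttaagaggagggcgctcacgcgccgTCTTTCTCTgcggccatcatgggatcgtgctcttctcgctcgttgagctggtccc
Snhg3, chr4:132353637-132353736, minus strand: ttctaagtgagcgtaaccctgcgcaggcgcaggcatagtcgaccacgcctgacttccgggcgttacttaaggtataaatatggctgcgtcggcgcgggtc
Ncl, chr1:86359406-86359505, minus strand: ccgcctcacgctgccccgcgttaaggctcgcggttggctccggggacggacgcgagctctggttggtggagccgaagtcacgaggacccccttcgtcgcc
Gnl3, chr14:31019082-31019181, minus strand: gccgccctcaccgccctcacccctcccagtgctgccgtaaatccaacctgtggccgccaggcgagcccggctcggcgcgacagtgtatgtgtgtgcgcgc
Snhg18, chr15:32244613-32244712, minus strand: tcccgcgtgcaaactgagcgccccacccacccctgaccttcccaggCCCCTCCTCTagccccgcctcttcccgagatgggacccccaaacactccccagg
Such a run, read on the gene's own strand, was found at 14 of 40 single hosts with a window (35%) and at 24.0% of all genes in the table. The letters CACGTG, the E-box bound by Myc and related factors and the same on both strands, were within the 300-base window of 9 of the 40 hosts (22.5%) and of 8.09% of all genes. A match describes these letters and shows no binding or start use.

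With combined treatment against rapamycin the H/ACA genes mostly lay above their hosts and the box C/D genes mostly below. The snoRNA difference exceeded the host difference in 19 of 23 H/ACA pairs, with medians of 0.77 for the snoRNAs and 0.42 for their hosts. It did so in 8 of 32 box C/D pairs, with medians of 0.39 and 0.61. Across pairs Pearson's r between snoRNA and host differences was 0.54 for box C/D and 0.52 for H/ACA genes, as a description over pairs that share arrays and sometimes a host. For tamoxifen against vehicle 7 of 23 H/ACA and 8 of 32 box C/D members exceeded their hosts, and for tamoxifen averaged over rapamycin 16 of 23 and 8 of 32 did.

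**Figure D4:**
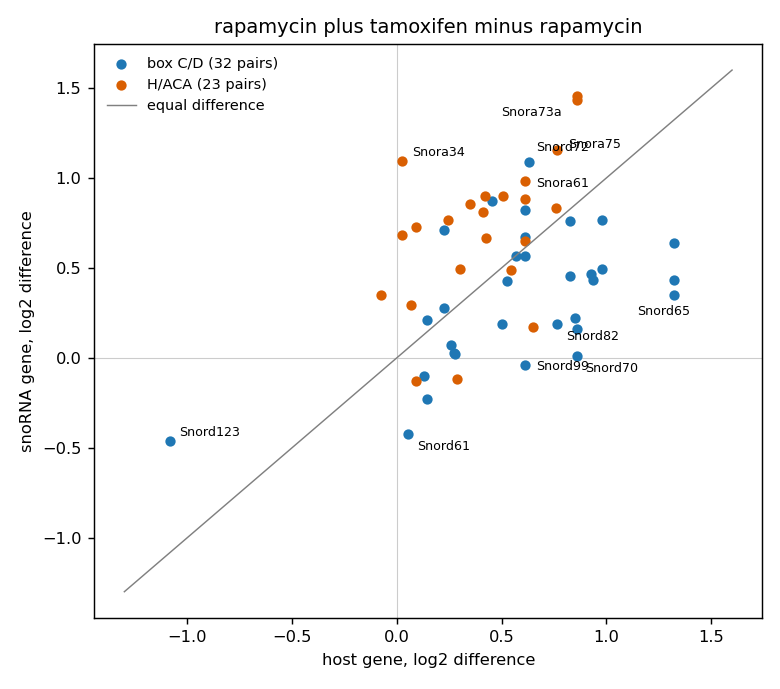
Log2 difference of combined treatment minus rapamycin for 55 snoRNA genes (y axis) against that of the host gene (x axis), with a line at equal difference; members of 1 host share an x value. H/ACA points lay above the line in 19 of 23 pairs and box C/D points in 8 of 32.

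Members of 1 host had unlike differences, which were not tested against each other. Ncl, which encodes nucleolin, had a difference of 0.76 ± 0.25 (limma adjusted p = 0.191), its H/ACA member Snora75 had 1.16 and its box C/D member Snord82 had 0.19. Snhg12 had 0.61 ± 0.28 (limma adjusted p = 0.391), and its H/ACA members Snora16a, Snora44 and Snora61 had 0.65, 0.88 and 0.98, whereas its box C/D member Snord99 had -0.04. Snord99 had 11.41, 11.33 and 11.68 with rapamycin and 11.43 and 11.44 with both drugs, so its groups overlapped. These members also differed in brightness. Over the whole-stomach arrays Snord82 averaged 12.10 and Snora75 6.06. Snord99 averaged 11.04, and Snora16a, Snora44 and Snora61 averaged 9.75, 9.97 and 8.21. Compression of differences at high signal was not tested.

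Hosts that rose did not always hold members that did. Nop58, itself a box C/D core protein gene, rose by 0.86 ± 0.16 (limma adjusted p = 0.0276), and its members Snord11 and Snord70 had 0.16 and 0.01. The non-coding 2410006H16Rik rose by 1.32 ± 0.18 (limma adjusted p = 0.00738), and its members Snord49a, Snord49b and Snord65 had 0.64, 0.43 and 0.35. Snhg3 rose by 0.86 ± 0.13 (limma adjusted p = 0.0134), below its members Snora73a and Snora73b at 1.44 and 1.46. Gnl3, which encodes nucleostemin, had 0.98 ± 0.31 (limma adjusted p = 0.187), with Snord19 at 0.77 and Snord69 at 0.49. Snhg18 fell by 1.08 ± 0.13 (limma adjusted p = 0.00475), from 7.37, 7.51 and 7.21 to 6.27 and 6.28, and its member Snord123 had -0.46. Snord61, at -0.42, lay in Rbmx, which had 0.05 ± 0.13.

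Class medians are also given by kind of host. Among members in ribosomal protein genes the medians for combined treatment against rapamycin were 0.67 (6 H/ACA) and 0.52 (12 box C/D), in other protein-coding genes 0.68 (13) and 0.20 (18), and in non-coding genes 0.93 (6) and 0.43 (9). The 3 box C/D genes in no RefSeq gene had a median of 0.70. Length is tied to class: over all 73 members Pearson's r between RefSeq length and this difference was 0.47, and within box C/D and H/ACA genes 0.23 and 0.38, as a description.

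Genes for the proteins that carry snoRNAs rose with tamoxifen averaged over rapamycin. All 3 measured box C/D core genes rose, with Nop58 at 0.95 ± 0.12, Nop56 at 0.75 ± 0.11 and Snu13 at 0.57 ± 0.10 (limma adjusted p = 0.00208, 0.00442 and 0.00977). Of the listed H/ACA genes, 4 for core proteins and Naf1 for an assembly factor, Dkc1 rose by 0.93 ± 0.15, Gar1 by 0.70 ± 0.14 and Nhp2 by 0.70 ± 0.11 (limma adjusted p = 0.00664, 0.0225 and 0.00742), whereas Nop10 had 0.07 and Naf1 -0.02. Median differences of the lists were 0.75 and, with Naf1, 0.70.

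Assembly and nucleolar genes also rose in part. Of 12 measured snoRNP assembly genes 5 rose and 0 fell, among them Nolc1 at 0.61 ± 0.13, Ruvbl1 at 0.58 ± 0.12, Znhit6 at 0.51 ± 0.09 and Shq1 at 0.49 ± 0.10. Of 12 snoRNA processing and decay genes, the exosome genes Dis3 and Exosc9 rose, by 0.51 ± 0.11 and 0.39 ± 0.09. Of 14 RNA polymerase I and nucleolar genes 8 rose, led by Npm1 at 0.86 ± 0.11, Wdr43 at 0.82 ± 0.10, Ncl at 0.79 ± 0.18 and Polr1a at 0.70 ± 0.16. Of 15 measured Snhg genes Snhg1, Snhg3, Snhg6 and Snhg15 rose and Snhg18 fell by 1.12 ± 0.10. Gas5 was listed with them but was not among the measured genes. These calls are limma's over all genes, of which 5.85% were called.

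Other small RNA genes on the array gave a comparison for the class. Of 5 measured small Cajal body RNA genes Scarna17 rose by 0.57 ± 0.10 with tamoxifen averaged over rapamycin (limma adjusted p = 0.0138), and the median was 0.24. Of 472 microRNA genes 6 rose and 0 fell, with a median of -0.02. For combined treatment against rapamycin the microRNA genes had a median of 0.02, with 259 of 472 higher, and the small Cajal body RNA genes 0.37, with 5 of 5 higher. The 4 measured Rnu genes had a median of 0.50, with 3 of 4 higher. Apart from Rnu3a none passed the test, with Rnu11 at 0.51 ± 0.24 and Rnu12 at 0.49 ± 0.18 (limma adjusted p = 0.396 and 0.262). These 4 include Rnu3a, itself a box C/D RNA, and the dim Rnu5g, at 1.27 to 2.88 on the whole-stomach arrays.

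In the separated cells, snoRNA signal of both classes was mostly lower in the parietal-cell array than in the array of other stomach cells. Each fraction was a single array, so no test or error is given, and their levels are not set against the whole stomachs. Parietal markers were higher in the parietal-cell array, with a median log2 difference of 3.23 over 13 genes. The box C/D median was -0.81, with 36 of 47 lower, and the H/ACA median -0.34, with 15 of 26 lower, 9 higher and 2 equal. The median over all genes was 0.03. At least 1 log2 unit lower were 20 box C/D and 6 H/ACA genes, against 6.46% of all genes, and at least 1 higher were 3 and 1, against 6.32%. At least 2 lower were 11 and 2, against 2.05%. Among members whose mean over both arrays was above the all-gene median, the classes lay closer. Their medians were -0.88 (32 box C/D genes) and -0.63 (16 H/ACA genes), against 0.04 over all such genes.

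**Figure D5:**
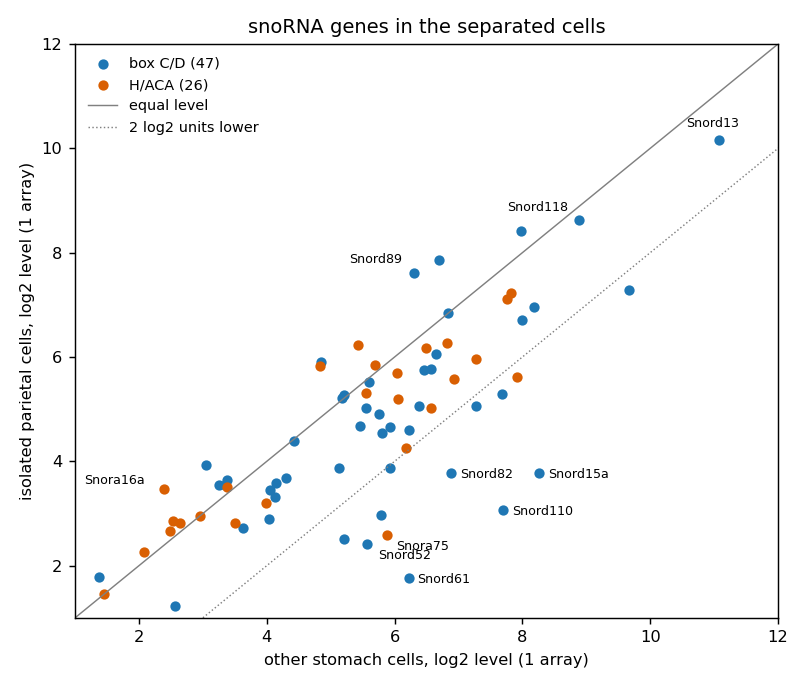
Log2 level of 73 snoRNA genes in isolated parietal cells (y axis) against other stomach cells (x axis), 1 array each, with lines at equal level and 2 log2 units below. Of the box C/D genes 11 were at least 2 units lower in parietal cells, and of the H/ACA genes 2.

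The 3 largest differences were those of box C/D genes. Snord110, within Nop56, had 3.07 in parietal cells and 7.70 in other cells, a log2 difference of -4.63, and its host differed by -0.67. Snord15a, within Rps3, had 3.78 and 8.26, a difference of -4.48, with its host at -1.02. Snora75 had 2.58 and 5.88 and Snord82 3.78 and 6.88, and their shared host Ncl differed by -0.20. Among members with a mean over both arrays above the all-gene median, to which the genes so far belong, Snord66 and Snord83b followed at -2.82 and -2.39. Of the dimmer members, Snord61 had 1.77 and 6.22, with Rbmx at 0.10, and Snord52 and Snord92 differed by -3.15 and -2.71.

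Members higher in parietal cells differed by less. Snord89, which lies in no RefSeq gene, had 7.62 and 6.31, a difference of 1.31. Snord8 had 7.86 and 6.69, Snord123 5.90 and 4.85, and Snora41 5.83 and 4.83. Snora47 and Snord65 differed by 0.81 and 0.43, and of the dimmer members Snora16a and Snord35b by 1.07 and 0.88. Snord118 and Snord13, with no containing gene, were at 8.62 and 8.89 and at 10.16 and 11.08. Over the 55 pairs with a measured host Pearson's r between snoRNA and host differences was 0.14, as a description.

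The brightest members of each class are given as a reference. Over the whole-stomach arrays Snord82, Snord49b, Snord55, Snord47 and Snord110 were the brightest box C/D genes, with differences for combined treatment against rapamycin of 0.19, 0.43, 0.09, 0.27 and 0.19 in that order. Snora33, within Rps12, was the brightest H/ACA gene and had 12.93, 12.96 and 13.08 with rapamycin and 13.13 and 13.20 with both drugs, a difference of 0.17. Snora21, Snora44, Snora16a and Snora62 followed in brightness, at 0.54, 0.88, 0.65 and 0.49. Levels of different probe sets are not on a common scale, and signal near saturation was not tested.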

How the data were processed

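The authors deposited log2 expression values per probe set, made with RMA in Partek per the submitters' processing notes; the versions and settings were not given in the sources used here. No probe-level signal or detection call was used, so signal over background is unknown, and the number of arrays limits the precision. Of 41345 probe sets, 25335 named a gene in the platform table, 23521 of them a single symbol, which gave 22180 genes. The labels give the groups.

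From these values, limma 3.58.1 in R 4.3.3 fitted 1 mean per whole-stomach group with a shared spread (5 residual degrees of freedom). A call needed an adjusted p under 0.05 (Benjamini-Hochberg, all genes). The fit was tested on simulated data. The members, lists and tests were chosen with earlier results of these data known, so no p is given for a class. Named were, per comparison, the called members and, with fewer than 5 of these, the 5 smallest p-values, the 5 brightest of each class, the 6 largest fraction differences each way among members above the all-gene median, their hosts, and up to 4 called genes per list. Fibrillarin had no single-symbol probe set and was not analysed here. Hosts were RefSeq genes (GRCm38.p6) whose span contains the member; the planned same-strand rule could not be applied, as the table has no strand. Promoter sequences are RefSeq's. No sequence of a snoRNA was used here. The fits with the set of arrays as a block and on the 7 arrays were added after the data were seen. The deviations of same-numbered arrays from their group means correlated at r = 0.56 between vehicle and tamoxifen and at -0.11 to 0.41 in the other pairs, so the numbers were not taken to pair the samples.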

Additional observations from a re-analysis of the deposited data

Results flagged for a closer look

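Snora78 was higher with rapamycin than with vehicle on every array (6.35, 6.42 and 6.40 against 6.30 and 6.34) and lower with both drugs than with tamoxifen on every array (7.20 and 7.17 against 7.31 and 7.52). Over all 22180 genes, 2821 lay wholly higher with rapamycin than with vehicle, and 4500 lay wholly lower with both drugs than with tamoxifen. The nearest rapamycin and vehicle levels were 6.35 and 6.34, and vehicle 2 and tamoxifen 2 lie outside the larger set of arrays. The interaction term was -0.30 on the log2 scale and was not called by limma over all genes.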

How the results depend on the processing

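Of the settings below, the set of arrays as a block and the 7 arrays of the larger set were chosen after seeing the data; all others were planned, and no result changed sign past its threshold. Counts of members called moved as follows. For tamoxifen against vehicle (3) the count was 1 with every probe set by itself, 0 in a fit of the groups compared, 5 with a trend and robust limma, 8 with the set as a block and 0 on the 7 arrays. For combined treatment against vehicle (3) it was 1 with every probe set by itself, 0 with the squamous covariate and 6 on the 7 arrays. For combined treatment against rapamycin (2) it was 1 with every probe set by itself, 12 in a fit of the groups compared, 8 with the set as a block and 12 on the 7 arrays. For tamoxifen averaged over rapamycin (9) it was 5 with the squamous covariate, 22 with the set as a block and 23 on the 7 arrays. For the comparisons with 0 members called, no such setting gave a call.

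Leaving out 1 array at a time gave 1 to 3 calls for tamoxifen against vehicle, 0 to 6 for combined treatment against vehicle, 0 to 8 against rapamycin, 3 to 19 for tamoxifen averaged over rapamycin and 0 to 1 for rapamycin averaged over tamoxifen, the 1 without tamoxifen 1. The medians then ranged, for tamoxifen against vehicle, from -0.00063 to 0.27 (box C/D) and 0.066 to 0.53 (H/ACA); for rapamycin against vehicle from -0.22 to 0.12 and -0.30 to 0.16; for combined treatment against vehicle from 0.021 to 0.49 and 0.33 to 0.98; for the interaction from 0.01 to 0.28 and 0.10 to 0.63; and for rapamycin averaged over tamoxifen from -0.034 to 0.19 and 0.035 to 0.28. The low ends of these ranges for the 3 comparisons with vehicle came without vehicle 1. For combined treatment against rapamycin the ranges were 0.25 to 0.45 and 0.67 to 0.86.

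Vehicle and tamoxifen have 1 array each among the 7 arrays, which is assumed to vary like the other groups; the same holds for the array left when 1 of a group of 2 is left out. On the 7 arrays the H/ACA medians were 0.68 for tamoxifen against vehicle, 0.98 for combined treatment against vehicle and -0.016 for the interaction. Leaving out dim genes gave an H/ACA median of -0.60 between the fractions, against -0.34. With the replicate number as a block the counts were 2 for tamoxifen against vehicle, 2 for combined treatment against vehicle, 3 against rapamycin and 11 for tamoxifen averaged over rapamycin; the numbers were not taken to pair the samples.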
